A study of Mus musculus with 4 samples.

Results

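The genes described here encode the Wnt ligands and the cell surface receptors that bind them. They were all genes whose platform symbol is a Wnt ligand or a numbered Frizzled receptor, together with Lrp5, Lrp6, Ror1, Ror2 and Ryk, read on probe sets of exactly 1 gene. There were 34 such genes among the 18193 genes measured, on 69 of 34945 probe sets. They were 19 ligands, 10 Frizzled receptors, 2 LRP co-receptors and 3 receptors of the ROR and RYK type, and all 34 entered the test. RNA came from the basal cell population sorted from mouse mammary glands, which per the labels is made up of myoepithelial cells, their progenitors and stem cells. All animals carried the MMTV-Wnt1 transgene (Wnt1-Tg) on the mixed background B66SJL/HEV/J, so there was no group without the transgene. The control diet was casein (CAS, 2 arrays), and the diet compared with it was soy protein isolate (SPI, 2 arrays). The MMTV promoter drives the transgene mainly in mammary epithelium. The labels give neither the age nor the length of the diet, and do not say whether RNA was pooled or each array stands for its own animal. The p-values set the diet difference against the spread between the 2 arrays of a diet, pooled in part with the spread of all genes. That spread may thus be technical.

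Wnt proteins are secreted, lipid-modified ligands that act over short distances. In the canonical branch a ligand bridges a Frizzled receptor and the co-receptor LRP5 or LRP6, which stabilizes beta-catenin and lets it act with TCF/LEF factors in the nucleus. Other ligands signal through Frizzled with ROR1, ROR2 or RYK and do not need beta-catenin. In the mammary gland Wnt1 is a classic oncogene of the mouse, Wnt4 is required for side-branching in pregnancy, and mice that lack Lrp5 are largely protected from tumours driven by Wnt1.

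The deposited log2 values had been centred on the median of the 4 arrays for every probe set. A value of 0.20 thus means 0.20 log2 units above that median, and the values hold no expression level. A coarse level class could be read from the step of the digits. Of the 34 genes, 11 fell in the class 8 to 16 on the log2 scale, 17 in the class 4 to 8, 5 in the class 2 to 4 and 1 under 2. Each gene was given the highest class among its probe sets. The class 8 to 16 held both LRP co-receptors, Fzd1, Fzd2, Fzd5, Fzd6, Fzd7, Ror1, Ryk, Wnt5a and Wnt9b. Fzd6, Ror1 and Wnt9b also had a probe set in the class 2 to 4. The class under 2 held Wnt3. Of 43 olfactory receptor probe sets 9 also lay at 4 or above, so that level does not establish expression, and in bulk samples fewer cells of a type and less RNA per cell cannot be told apart. Of 16 basal markers 15 lay in the class 8 to 16, Krt5, Krt14, Trp63 and Acta2 among them.

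Of the 34 genes 1 passed an adjusted p under 0.05 (limma, Benjamini-Hochberg over all genes), the ligand Wnt5b, which fell in SPI. That is 2.94% of the members, and 3.69% of all genes passed. In the lower direction 2.90% of all genes passed and in the higher direction 0.792%. At an unadjusted p under 0.05 were 7 members, or 20.6%, against 20.9% of all genes, 3 of them higher in SPI (10.7% of all genes) and 4 lower (10.2%). The arrays of the diets did not overlap in 16 members, or 47.1%, against 51.8% of all genes, with SPI above CAS in 7 (29.4% of all genes) and below in 9 (22.4%). Neither total stood above the background. None of the 34 differed by more than 1.5-fold, where 3.19% of all genes did.

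The differences between diets, SPI minus CAS, lay between -0.50 and 0.33 on the log2 scale. Their median was 0.0046, beside 0.021 over all genes, and the median of their absolute size was 0.071, beside 0.105 over all genes. The median standard error of a member was 0.079. Above 0 lay 17 members and below 0 the other 17, where 43.9% of all genes lay below. This split moved to 29 above and 5 below when arrays were centred on the hybridization controls, a scaling that moved the median of all genes to 0.19. SPI minus CAS of these controls was -0.17, and taking it off raises the difference of every gene by the same amount. The 5 that stayed below 0 were Wnt5b, Lrp5, Wnt2, Wnt2b and, at -0.0022, Fzd7.

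**Figure D1:**
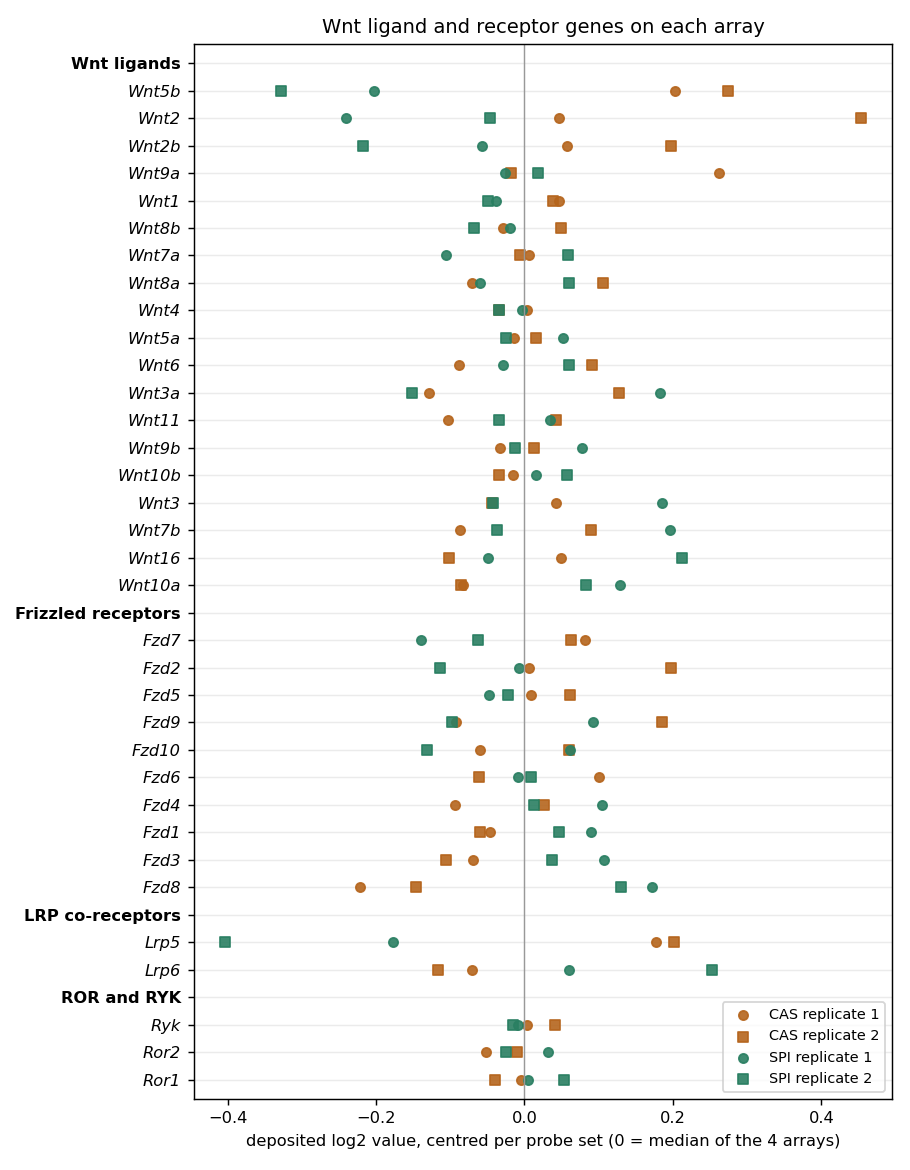
Deposited log2 value of each gene on each array, centred so that 0 is the median of the 4 arrays (for genes with several probe sets, the mean of those used). Circles are replicate 1 and squares replicate 2, brown for CAS and green for SPI. Wnt5b and Lrp5 show CAS arrays at 0.18 or above and SPI arrays at -0.18 or below, while the diets overlap in 18 of the 34 genes.

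**Figure D2:**
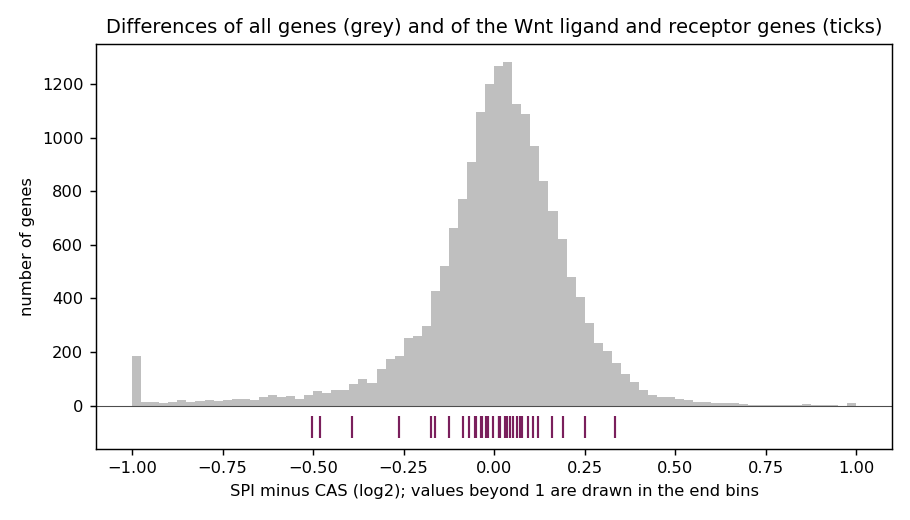
Number of genes (vertical axis) by difference SPI minus CAS on the log2 scale (horizontal axis), for all 18193 genes in grey, with the 34 Wnt ligand and receptor genes as ticks under the axis. The ticks run from -0.50 to 0.33, inside the range of the grey distribution, whose median is 0.021 and median absolute size 0.105. Wnt5b (-0.50) and Lrp5 (-0.48) are the ticks farthest from 0.

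Wnt5b, a ligand that signals largely without beta-catenin and the close relative of Wnt5a, was at 0.20 and 0.27 in CAS and at -0.20 and -0.33 in SPI. Both CAS arrays lay above both SPI arrays, and the gap was wide beside the spread within a diet. It fell by 0.50 on the log2 scale (SE 0.076, n = 2 arrays per diet, limma adjusted p = 0.0388), which is 1.42-fold (95% interval 1.24 to 1.62). With the replicate block, where 352 of all genes passed, the call did not hold (adjusted p = 0.103). It was 0.248 with an ordinary t statistic, 0.226 and 0.246 without CAS replicate 1 and 2, and 0.148 and 0.247 without SPI replicate 1 and 2. In each of these latter settings 0 of all genes passed, so they say nothing about Wnt5b in particular. The difference lay between -0.57 and -0.33 in the 12 alternatives run.

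Wnt5b was read by 2 probe sets that pointed the same way with different sizes. The probe set 1439373_x_at, whose suffix marks probes that can bind other transcripts, was at 0.28 and 0.33 in CAS and at -0.28 and -0.41 in SPI, a difference of -0.65 (limma adjusted p = 0.0320 over all probe sets). The probe set 1422602_a_at, whose suffix marks several transcripts of 1 gene, was at 0.13 and 0.22 in CAS and at -0.13 and -0.24 in SPI, a difference of -0.36 that did not pass (adjusted p = 0.119). No array of one diet overlapped those of the other in either.

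RefSeq places 3 transcription starts of Wnt5b on GRCm38.p6, and the 250 bases before each are printed here because Wnt5b is the member that passed. The arrays do not tell the starts apart. Promoters were found in the table for 24 of the 34 genes. Capitals mark CTTTGAA, or the same word with AT, TA or TT as its last letters, on either strand, which is the TCF/LEF core motif. The starts are numbered 1 to 3 from the upstream end of the gene.
Wnt5b start 1, chr6:119544348-119544597, minus strand: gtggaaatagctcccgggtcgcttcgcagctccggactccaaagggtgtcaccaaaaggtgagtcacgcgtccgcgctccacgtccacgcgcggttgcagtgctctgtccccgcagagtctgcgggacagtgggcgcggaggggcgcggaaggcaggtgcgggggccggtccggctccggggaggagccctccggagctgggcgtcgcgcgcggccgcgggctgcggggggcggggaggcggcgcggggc
Wnt5b start 2, chr6:119467212-119467461, minus strand: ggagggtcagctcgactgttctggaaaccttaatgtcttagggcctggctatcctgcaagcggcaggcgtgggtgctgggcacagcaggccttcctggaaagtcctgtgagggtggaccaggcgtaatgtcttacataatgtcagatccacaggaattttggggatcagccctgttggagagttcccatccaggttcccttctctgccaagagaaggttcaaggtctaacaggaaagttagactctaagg
Wnt5b start 3, chr6:119449387-119449636, minus strand: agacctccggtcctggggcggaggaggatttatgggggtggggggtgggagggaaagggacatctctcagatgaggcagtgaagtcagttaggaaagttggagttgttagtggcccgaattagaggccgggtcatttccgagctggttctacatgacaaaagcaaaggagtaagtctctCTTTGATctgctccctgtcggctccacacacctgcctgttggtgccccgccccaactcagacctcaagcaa

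The first start lies in sequence with 75.2% G and C and 35 CG dinucleotides in these 250 bases, the second with 53.2% and 4, and the third with 55.6% and 7. The motif was found 1 time before the third start and not before the other two. Of the 27 promoters of the member genes 3 held it (11.1%), those of Wnt5b, Fzd7 and Wnt11, against 14.8% of 32851 promoters of all genes. These are matches of letters and no evidence of binding. The median GC content was 71.6% over the 27 promoters and 52.4% over all promoters.

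Wnt1, the gene carried by the transgene, was read by 1 probe set, 1425377_at, in the level class 4 to 8. It was at 0.047 and 0.038 in CAS and at -0.038 and -0.049 in SPI. The diets did not overlap, and the arrays lay close together. The difference of -0.09 (SE 0.062, 95% interval -0.24 to 0.07, limma adjusted p = 0.487) did not pass, and its sign turned, to 0.085, when the hybridization controls set the scale. Tested among all probe sets, the adjusted p was 0.561. The estimate corresponds to 1.06-fold lower in SPI. Whether this probe set lies in the part of the gene that the transgene carries is not given in the sources used here, so the value does not separate the transgene from the mouse's own Wnt1.

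Among the other ligands, Wnt10a, a canonical ligand of skin and its appendages, was at -0.082 and -0.086 in CAS and at 0.13 and 0.082 in SPI. The diets did not overlap and the CAS arrays nearly coincided, but the difference of 0.19 (SE 0.063) did not pass (limma adjusted p = 0.185). Wnt2b was at 0.057 and 0.20 in CAS and at -0.057 and -0.22 in SPI, a difference of -0.26 (SE 0.091, adjusted p = 0.197). Its relative Wnt2, a ligand of stromal cells, was at 0.046 and 0.45 in CAS and at -0.24 and -0.046 in SPI, a difference of -0.39 (SE 0.155, adjusted p = 0.242) that was -0.19 without CAS replicate 2. Both were read by 1 probe set in the class 2 to 4, so these values stand on weak signal. When the hybridization controls set the scale, Wnt10a was at 0.36 and passed (limma adjusted p = 0.0415). That scaling raises every gene alike, and 2242 of all genes then passed as higher, against 144 in the main setting.

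Wnt4, the ligand of side-branching, was at 0.0033 and -0.034 in CAS and at -0.0033 and -0.035 in SPI, a difference of -0.0035 (95% interval -0.17 to 0.16). Its 2 probe sets pointed opposite ways, 1441687_at at -0.12 and 1450782_at at 0.11. Wnt6, a ligand made by surface epithelia, was at -0.088 and 0.091 in CAS and at -0.029 and 0.061 in SPI, with the diets mixed and a difference of 0.014 (-0.21 to 0.24).

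Wnt5a, which restrains ductal growth, was at -0.015 and 0.016 in CAS and at 0.052 and -0.025 in SPI, a difference of 0.013 (-0.16 to 0.18). Of its 4 probe sets, the pair in the class 8 to 16 was used, at 0.062 and -0.037. Of the pair in the class 4 to 8, 1437673_at was at 0.30 with the diets not overlapping (limma adjusted p = 0.170). The remaining 11 ligands lay between -0.13 and 0.11, with Wnt9a (-0.13), Wnt16 (0.11), Wnt7b (0.078) and Wnt3 (0.072) farthest from 0, and 0 of them passed. Of these 11 the diets overlapped in all but Wnt10b, at -0.016 and -0.035 in CAS and at 0.016 and 0.058 in SPI. Over the 19 ligands, 1 fell, 0 rose and 18 did not pass, with a median of 0.013.

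The ligand genes include 4 pairs that stand next to each other in the genome, by the gene order of GRCm38.p6. Wnt1 and Wnt10b were at -0.09 and 0.062, Wnt6 and Wnt10a at 0.014 and 0.19, Wnt3a and Wnt9a at 0.016 and -0.13, and Wnt9b and Wnt3 at 0.043 and 0.072. No member of these pairs passed the test.

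**Figure D3:**
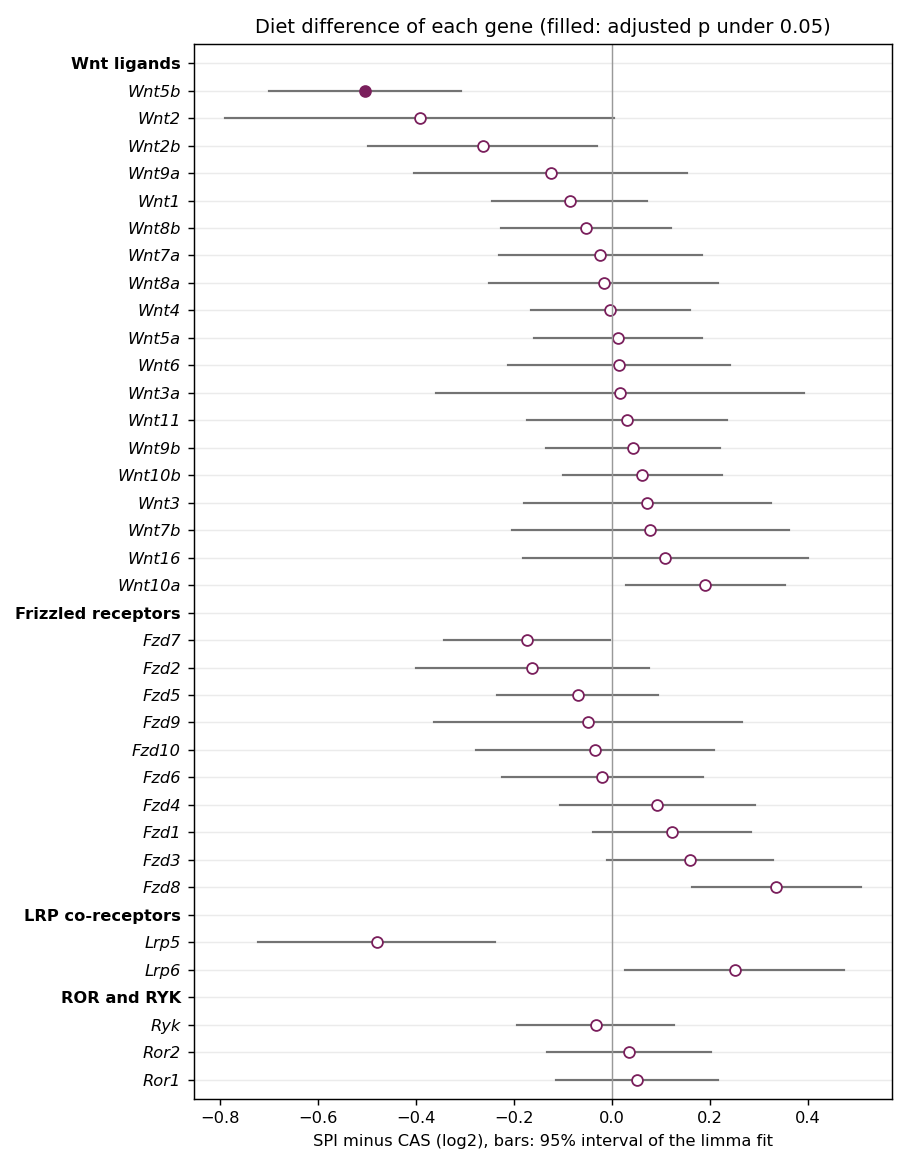
Difference SPI minus CAS of each gene on the log2 scale (horizontal axis), with the 95% interval of the limma fit as bars, grouped by role. Filled points passed an adjusted p under 0.05. Wnt5b at -0.50 is the filled point. Lrp5 (-0.48), Fzd8 (0.33), Wnt10a (0.19), Wnt2b (-0.26), Lrp6 (0.25) and Fzd7 (-0.17) have intervals that leave out 0 but did not pass after adjustment over all genes.

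The Frizzled receptors, which carry the ligand-binding cysteine-rich domain, had 0 of 10 past the threshold, with 2 at an unadjusted p under 0.05 (Fzd8 and Fzd7) and a median of -0.028. Fzd8 had the largest positive difference of the 34 genes, with -0.22 and -0.15 in CAS and 0.17 and 0.13 in SPI. The diets were well apart, and the difference of 0.33 (SE 0.067, 95% interval 0.16 to 0.51) did not pass (limma adjusted p = 0.0728). It passed among genes at level 4 or above (adjusted p = 0.0402). It also passed with the hybridization controls as the scale (0.0148), which raises every gene alike.

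That value of Fzd8 is the mean of 2 probe sets that disagreed. The probe set 1445815_at was at -0.29 and -0.34 in CAS and at 0.31 and 0.29 in SPI, a difference of 0.62 that passed among probe sets (limma adjusted p = 0.0260). The other, 1423348_at, was at -0.15 and 0.049 in CAS and at 0.033 and -0.033 in SPI, with the diets mixed and a difference of 0.051 (adjusted p = 0.825). What sets the probe sets apart was not tested.

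Fzd7, a receptor studied for its part in mammary stem cells, was at 0.082 and 0.063 in CAS and at -0.14 and -0.063 in SPI. The diets did not overlap, and the difference of -0.17 (SE 0.066) did not pass (limma adjusted p = 0.231), and was -0.0022 with the hybridization controls as the scale. A second Fzd7 probe set, in a lower class and not used, was at -0.30, with SPI replicate 2 at -0.49, while SPI replicate 1 lay at 0.0071, below CAS replicate 2 and above CAS replicate 1.

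Fzd3, which acts in planar polarity and axon guidance, differed by 0.16 (adjusted p = 0.259). Of its 6 probe sets 5 were above 0, and 1421157_at (0.30) and 1434788_at (0.26) were highest. Fzd1 (0.12) also had SPI arrays above CAS arrays, and Fzd2 (-0.16) and Fzd5 (-0.071) had them below. In Fzd4, Fzd6, Fzd9 and Fzd10 the diets overlapped, with differences between -0.049 and 0.092.

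The LRP co-receptors, which are shared by the canonical ligands, had differences of opposite sign, and 0 of 2 passed while both were at an unadjusted p under 0.05. Lrp5, read by 1 probe set, was at 0.18 and 0.20 in CAS and at -0.18 and -0.40 in SPI. SPI replicate 2 was the lowest, and both SPI arrays lay below both CAS arrays. The difference of -0.48 (SE 0.094, 95% interval -0.72 to -0.24), 1.39-fold lower in SPI, did not pass (limma adjusted p = 0.0701). It passed among genes at level 4 or above (adjusted p = 0.0417) and with a variance trend over the level class (0.0295). With the hybridization controls as the scale it was -0.31 and did not pass (0.0651), and with the replicate block the adjusted p was 0.132.

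Lrp6 was at -0.070 and -0.12 in CAS and at 0.061 and 0.25 in SPI, with SPI replicate 2 the highest. The difference of 0.25 (SE 0.087) did not pass (limma adjusted p = 0.201) and was 0.15 without SPI replicate 2. With the hybridization controls as the scale, which raises every gene alike, it was 0.42 and passed (adjusted p = 0.0451). Its probe sets 1428500_at and 1451022_at were at 0.36 and 0.14, each with the SPI arrays above the CAS arrays. Within each array, Lrp6 minus Lrp5 was -0.25 and -0.32 in CAS and 0.24 and 0.66 in SPI, on these centred values, which do not compare the levels of the genes. This quantity differed by 0.73 between diets. The exact two-sided permutation test over arrays gave p = 0.333, the smallest that 2 arrays against 2 allow, so it could not pass.

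Of the 3 receptors of the non-canonical branch 0 passed, none was at an unadjusted p under 0.05, and the median absolute difference was 0.034. Ror1, a receptor tyrosine kinase-like protein, was at -0.0044 and -0.040 in CAS and at 0.0044 and 0.053 in SPI, a difference of 0.051. Ror2, which binds Wnt5a, differed by 0.034, and Ryk, an atypical kinase-like receptor, by -0.034. Their limma adjusted p-values were 0.708, 0.815 and 0.807, and the 95% intervals lay within -0.19 to 0.22. Probe sets of Ror1 that were not used pointed both ways, 1429312_s_at at -0.22 and 1451014_at at 0.11.

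More than 1 probe set read 22 of the 34 genes. In 10 of these the probe sets lay on one side of 0, and in 12 on both sides. Among the 69 probe sets taken on their own, 2 passed (2.90%), those of Wnt5b and Fzd8, against 2.22% of all probe sets. At an unadjusted p under 0.05 were 11 of the 69 (15.9%), against 19.3% of all, and the diets did not overlap in 32 (46.4%), against 49.8%. The probe sets of Fzd8 spanned 0.051 to 0.62, those of Wnt5a -0.037 to 0.30 and those of Ror1 -0.22 to 0.11. Each of these spans was wider than the median absolute difference of 0.071.

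**Figure D4:**
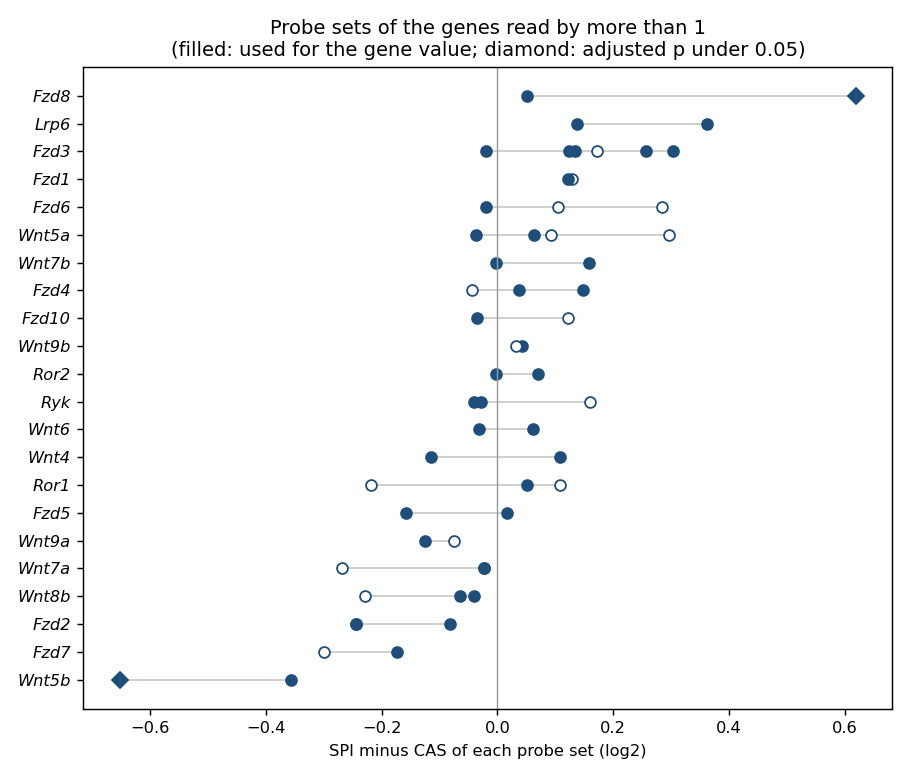
Difference SPI minus CAS on the log2 scale for each probe set of the 22 genes read by more than 1, filled where used for the gene value and as a diamond where the adjusted p over all probe sets was under 0.05. The diamonds are Wnt5b at -0.65 and Fzd8 at 0.62, and the second probe set of Fzd8 lies at 0.051.

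Other genes of the pathway were counted from lists by role. Of 79 measured, 3 passed (3.8%, with 3.69% over all genes). Nkd2, an inhibitor of Dishevelled, fell by 0.63 on the log2 scale (limma adjusted p = 0.0446), Sfrp2, a secreted Wnt-binding protein, fell by 0.43 (adjusted p = 0.0367), and Sostdc1, a secreted antagonist that binds LRP6, rose by 0.39 (adjusted p = 0.0465). Each had the arrays of one diet on one side of the other. At an unadjusted p under 0.05 were 19 (24.1%, with 20.9% over all genes). Sostdc1 did not pass with arrays centred on their median, with gene-specific probe sets first or with the mean of all probe sets, and Sfrp2 did not pass with the hybridization controls as the scale. With the replicate block 0 of the 79 passed, and with every probe set on its own none of the 3 did.

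The counts by list at an unadjusted p are to be read against the 20.9% of all genes. Of the 22 cytoplasmic genes, from Dishevelled to the beta-catenin destruction complex, 1 fell and 0 rose past the adjusted threshold. At an unadjusted p under 0.05, 2 were higher and 2 lower. Beside Nkd2 the next by p was Axin2, at 0.37 (limma adjusted p = 0.0727). Of 13 genes, the secreted inhibitors and Kremen1, 1 fell and 1 rose past the adjusted threshold. At an unadjusted p under 0.05, 1 of the 13 was higher and 3 lower. Of 11 nuclear genes 0 passed and 3 were at an unadjusted p under 0.05, with Lef1, a DNA-binding partner of beta-catenin, at 0.60 (adjusted p = 0.0734) and the co-repressor Tle1 at 0.26. Of 9 R-spondin and LGR genes, which set how much Frizzled stays on the cell surface, 0 passed and 3 were at an unadjusted p under 0.05, with Rnf43 at 0.26 and Lgr4 at 0.28 and a list median of 0.17. Of 5 genes of ligand secretion 0 passed and 2 were at an unadjusted p under 0.05, Notum, a secreted enzyme that inactivates Wnt proteins, at -0.32 and Porcn, which adds their lipid, at -0.23. Of 13 genes of planar polarity and other non-canonical signalling 0 passed and 2 were at an unadjusted p under 0.05, Prickle2 at 0.45 and Celsr1 at -0.42. Of 6 glypicans and syndecans 0 passed and 1 was at an unadjusted p under 0.05, Sdc1 at -0.27, with Gpc1 at -0.19. The median of the 79 genes was 0.037, beside 0.021 over all genes.

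Markers of other cell types differed on the same arrays. The counts stand beside 2.90% of all genes that fell and 0.792% that rose past the adjusted threshold. At an unadjusted p under 0.05, 10.2% of all genes were lower and 10.7% higher. Of 20 fibroblast markers 15 fell and 0 rose, with list medians of 0.57 and 0.55 in CAS and -0.56 and -0.52 in SPI. Of 14 luminal markers 4 fell and 0 rose, with medians of 0.23 and 0.21 in CAS and -0.18 and -0.27 in SPI, and of 12 endothelial and pericyte markers 5 fell, with medians of 0.39 and 0.32 in CAS and -0.25 and -0.40 in SPI. Of 16 basal markers 3 rose, with medians of -0.071 and -0.028 in CAS and 0.027 and 0.028 in SPI. Of 13 immune markers 0 passed, with 5 higher and 1 lower at an unadjusted p under 0.05 and medians of -0.15 and 0.0060 in CAS and 0.084 and 0.073 in SPI. The 5 were C1qa, C1qb, C1qc, Cd68 and Adgre1, at 0.34 to 0.51, and the 1 lower was Ms4a1, at -0.32. Other myeloid genes of the list did not share this size, with Csf1r at 0.14, Itgax at 0.030 and Itgam at -0.16. Of the 13 markers 11 lay above 0 and 2 below. Of 9 adipocyte markers 3 fell and 0 rose, while Adipoq, at 0.38 with SPI arrays above CAS arrays, did not pass (limma adjusted p = 0.0569). No marker could be read as absent, since centred values have no 0 level: 10 fibroblast, 10 luminal and 3 endothelial or pericyte markers lay in the class 8 to 16. The part of other cell types in the values of the members and of the other pathway genes was not tested, whichever way their arrays lay.

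**Figure D5:**
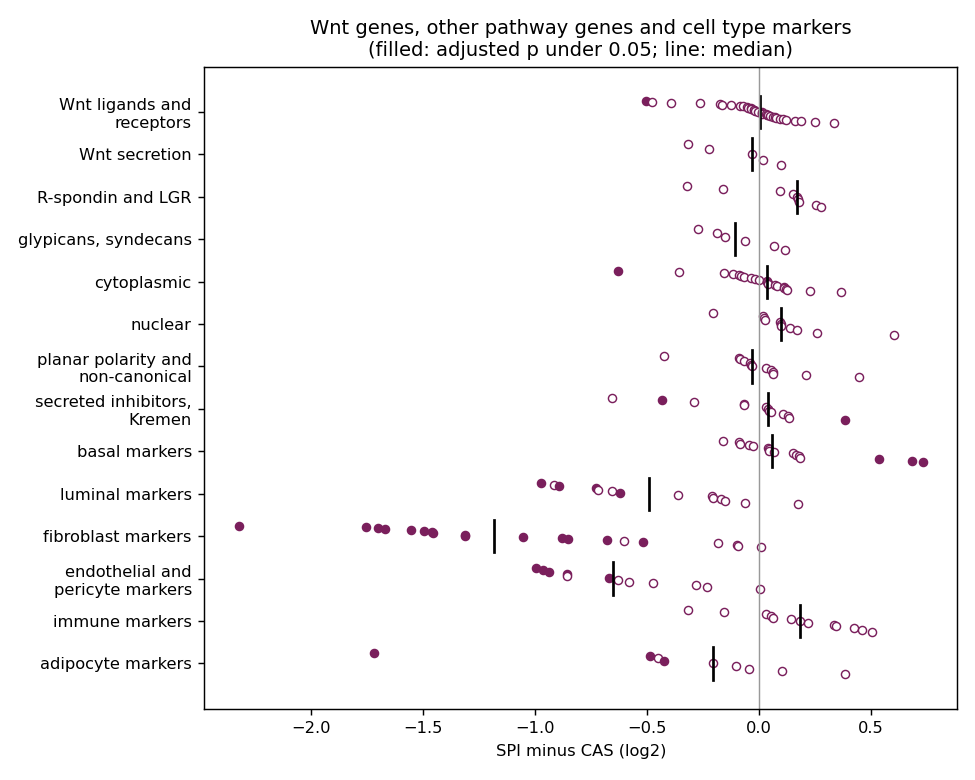
Difference SPI minus CAS on the log2 scale for each gene of the Wnt ligands and receptors, of 7 lists of other pathway genes and of 6 lists of cell type markers, filled where the adjusted p was under 0.05, with the list median as a line. The Wnt ligand and receptor genes centre on 0.0046, and the fibroblast markers on -1.18.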

How the data were processed

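RNA from sorted mammary basal cells was hybridized to 4 Affymetrix arrays, and the submitters' processing notes list GCOS and RMA without a version. The deposited table holds log2 values, taking RMA's base, which were also centred per probe set (median of the 4 arrays 0 to within 5e-07), a step no label records. Levels and depth are therefore unknown, and the number of arrays limits the precision.

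Of 45037 non-control probe sets 34945 had 1 gene in the platform annotation, 932 several and 9160 were not listed. Symbols were updated by gene ID with GRCm38.p6, which matched 34741. For each gene, the probe sets of its highest level class were averaged. The test was limma's (version 3.58.1, R 4.3.3, lmFit and eBayes, SPI minus CAS, two-sided, no block, 2 residual and 3.04 prior degrees of freedom). Benjamini-Hochberg adjustment was over all genes at 0.05. The fit was also run on simulated arrays, whose outcome is not given here, so that run lends no support to the results. Since levels are not held, the planned filter used the level class.

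All members are accounted for. Those at an unadjusted p under 0.05, Wnt1, Lrp5, Lrp6, Fzd7, Wnt4, Wnt5a, Wnt6 and Wnt10a are given array by array. Wnt2, Wnt10b and Ror1 were added to these after their values were seen. Of other pathway genes those past the threshold are named, or, in a list with none, the first 2 by p. Axin2 was added after its value was seen. The members and lists were chosen with earlier results of these data known. Alternatives were the replicate block, each array left out, 2 other scalings, other choices of probe sets, a filter at level 4, other variance models and other thresholds. Protein and probe sequences were not used here.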

Additional observations from a re-analysis of the deposited data

How the results depend on the processing

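The 1 of 34 members past the threshold became 4 when the hybridization controls set the scale (3 higher, 1 lower). It became 3 of the 28 members at level 4 or above (1 higher, 2 lower), and 2 with a variance trend over the level class. With every probe set on its own it became 2, and at an adjusted p under 0.10 it became 3. It became 0 at an adjusted p under 0.01, with an ordinary t statistic (6 members at an unadjusted p under 0.05), with the replicate block and without any 1 of the arrays (0 to 0 for the members, for all genes and for the other pathway genes, where one diet has a single array, assumed to vary like the other). Of all 18193 genes 671 passed. Under the same settings 2758 (2242 higher, 516 lower), 1094, 1161, 619 and 1485 passed, then 126, 0 (2896 at an unadjusted p under 0.05) and 352 with the block. The 1094 were counted among the 5853 genes of class 8 to 16 and the 7824 of class 4 to 8. Each member count is to be read against the count of all genes at its setting. Of the other pathway genes 3 passed (1 higher, 2 lower), and then 12 (10 higher, 2 lower), 8 (4 and 4), 8 (4 and 4), 1 (Daam1, lower, and none of the 3) and 10 (4 higher, 6 lower), and 0 at an adjusted p under 0.01, with the ordinary t statistic and with the block. The labels do not say that a replicate number is shared between diets, and deviations of same-numbered arrays had a correlation of -0.083 over genes, so the block pairs arrays by number alone. Wnt5b kept its direction in all 12 alternatives run on it, but these could not have turned it. Other tests and filters leave the difference as it is, and the probe set choices used the same probe sets. Leaving out 1 array cannot turn a gene whose diets do not overlap. The 2 other scalings shift every gene by the same amount. SPI minus CAS was -0.17 for the hybridization controls and 0.015 for the median of all probe sets. Taking either off is too small a shift to turn Wnt5b at -0.50. The scalings gave -0.52 (median of all probe sets) and -0.33 (hybridization controls). The ordinary t statistic and each left-out array call no gene at all, so a call lost there is not particular to a gene.

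Members that changed sign had not passed. With arrays centred on the hybridization controls they were Fzd2 (0.0088), Fzd5 (0.10), Fzd9 (0.12), Fzd10 (0.14), Fzd6 (0.15), Wnt1 (0.085), Wnt9a (0.046), Wnt8b (0.12), Wnt7a (0.15), Wnt8a (0.15), Wnt4 (0.17) and Ryk (0.14). With arrays centred on the median they were Wnt5a (-0.0025) and Wnt6 (-0.0011), with the mean of all probe sets Fzd10 (0.043), Fzd6 (0.12), Ror1 (-0.019) and Ryk (0.031), and with gene-specific probe sets first Wnt6 (-0.033) and Ryk (0.16). Leaving out 1 array turned the sign of 15 members, whose ranges were Fzd9 -0.19 to 0.090, Fzd10 -0.13 to 0.061, Fzd6 -0.10 to 0.061, Wnt9a -0.27 to 0.015, Wnt16 -0.023 to 0.24, Wnt3 -0.042 to 0.19, Wnt7b -0.038 to 0.19, Wnt9b -0.0024 to 0.088, Wnt11 -0.043 to 0.10, Wnt7a -0.11 to 0.059, Wnt8a -0.11 to 0.070, Wnt5a -0.026 to 0.051, Wnt6 -0.076 to 0.10, Wnt3a -0.15 to 0.18 and Wnt4 -0.022 to 0.015. Each scaling took the same amount off every gene, -0.171 with the hybridization controls and 0.0151 with the median. That turned each member whose difference had the sign of this amount and a smaller size. The cause of the sign changes in the other settings was not tested. Quantities on weak probe sets cannot be told from background here, since the centred values hold no level.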
